A study of Mus musculus with 4 samples.

Results

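The genes described here encode the inhibin and activin subunits (Inha, Inhba, Inhbb), the activin-binding proteins follistatin and follistatin-like 3 (Fst, Fstl3) and receptors of the system (Acvr1b, Acvr2a, Acvr2b, Tgfbr3). They were chosen by name, and all 9 were found among the 55385 genes of the count table. RNA had been sequenced from mouse granulosa cells (GCs), the somatic cells around the oocyte, that were released from in vitro grown follicles. Follicles came from Kunming mice aged 12 to 14 days and were cultured for 6 days. The groups compared were NT4 (2 libraries, follicles grown with neurotrophin-4, NT-4) and Control (2 libraries, follicles grown without it). The medium of both groups contained FSH, insulin and fetuin, so neither group was free of gonadotropin. The cells were those left after oocytes had been removed with hyaluronidase, and the samples of a group came from independent experiments. How many follicles or mice entered a library is not given in the sources used here.

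Inhibins and activins are dimers of the transforming growth factor beta superfamily. A beta subunit joined to another beta subunit gives an activin, which stimulates FSH release from the pituitary and acts locally on GCs, while a beta subunit joined to the alpha subunit gives an inhibin, which suppresses FSH. Activin binds the type II receptors and then ALK4 (encoded by Acvr1b), which phosphorylates SMAD2 and SMAD3. Follistatin binds activin and keeps it from the receptors, and inhibin competes for the type II receptors with the help of betaglycan (encoded by Tgfbr3). GCs of growing follicles are the main ovarian source of inhibin.

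Library totals ran from 49520092 to 78704020 expected counts, an estimated 12380023 to 19676005 read pairs. The libraries numbered 2 were the deeper ones in both groups. Of 12 GC markers, all were above 1 CPM (counts scaled to the library total) on average, and their sum was 4795 to 5152 CPM per library. Theca and stroma markers (9 genes, Col1a2 highest) summed to 1036 and 1018 CPM in the Control libraries, and the NT4 libraries had 1473 and 1197 CPM. Oocyte markers (10 genes, Gdf9 highest) summed to 72.7 to 105 CPM, and none was at 0. Endothelial markers summed to 19.1 to 27.5 CPM, surface epithelium markers to 34.6 to 43.4, erythroid markers to 3.23 to 5.68 and leukocyte markers to 1.38 to 3.15. The leukocyte marker Ptprc was at 0 in 3 of the 4 libraries, and the epithelial marker Krt19 had no counts in any, for which the upper limit is 0.152 to 0.242 CPM by library. In these bulk samples, fewer cells of a type and less RNA per cell cannot be told apart.

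The subunit genes were among the most abundant transcripts of the GCs. Inha, the alpha subunit (ENSMUSG00000032968, GRCm38 chromosome 1, 75507077 to 75510366), had 6716 CPM in Control 1 and 7979 CPM in Control 2, and in NT4 1 and NT4 2 it had 5855 and 8687 CPM. The lowest and the highest library were both of the NT4 group, so the groups overlapped. To compare genes, levels were set per transcript length (TPM, computed here from the counts and the longest coding transcript). On this scale Inha was at 7987 to 11236 TPM and ranked between 2 and 4 of 21897 protein-coding genes in every library.

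Inhbb, the beta B subunit (ENSMUSG00000037035, chromosome 1, 119415465 to 119422248), had 1531 and 2689 CPM in Control 1 and Control 2, and 1053 and 3157 CPM in NT4 1 and NT4 2. The library numbered 2 was the higher one in each group, by 1.76-fold in Control and 3.0-fold in NT4. Inhba, the beta A subunit (ENSMUSG00000041324, chromosome 13, 16011851 to 16031621), was at 1607, 2157, 1211 and 2410 CPM in the same order of libraries. Its spread had the same form and was smaller, 1.34-fold in Control and 1.99-fold in NT4. Both beta subunit genes therefore had their lowest and highest value within the NT4 group. Per length, Inhbb was at 498 to 1416 TPM (ranks 81 to 208) and Inhba at 381 to 720 TPM (ranks 149 to 277). The ranges of the beta subunits overlapped, but per length Inhbb was above Inhba in each of the 4 libraries, while in CPM Inhba was the higher one in both libraries numbered 1.

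The beta subunit genes, whose libraries fell in the same order, differ in the DNA before their start sites. The 250 bases upstream of the RefSeq start sites (GRCm38.p6) are shown with the letters that matched a searched motif in capitals, Inhba at chr13:16011601-16011850 on the plus strand and Inhbb at chr1:119422249-119422498 on the minus strand. In both genes the RefSeq start site is the annotated GENCODE gene start.
Inhba: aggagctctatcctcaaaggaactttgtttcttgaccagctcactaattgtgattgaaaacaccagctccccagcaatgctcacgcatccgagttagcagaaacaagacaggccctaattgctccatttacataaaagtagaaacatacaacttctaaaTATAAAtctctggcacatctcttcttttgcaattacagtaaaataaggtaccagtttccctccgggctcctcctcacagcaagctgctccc
Inhbb: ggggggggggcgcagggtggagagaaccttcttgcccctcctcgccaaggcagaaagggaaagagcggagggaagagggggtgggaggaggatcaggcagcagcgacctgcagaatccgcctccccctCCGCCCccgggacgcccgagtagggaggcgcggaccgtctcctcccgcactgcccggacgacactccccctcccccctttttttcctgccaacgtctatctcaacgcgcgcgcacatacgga
The Inhba window had a GC content of 43.2% and 3 CpG dinucleotides, and the Inhbb window 68.0% and 21. The median over 32851 windows of this kind was 52.4% and 6. Both strands were searched for 7 motifs. These were the letters TATAAA for the core of the TATA box, TGACG for the core of the cAMP response element and AGGTCA for the sequence bound by NR5A and other nuclear receptors. GATA factors were searched by the letters GATAAG, forkhead factors by the letters GTAAACA and the AP-1 complex by the letters TGANTCA. The core of the GC box was searched by the letters CCGCCC. Inhba held 1 match, TATAAA on its own strand beginning 91 bases before the start site, and 12.4% of all windows hold these letters. Inhbb held 1 match, CCGCCC beginning 122 bases before the start site, found in 32.7% of all windows. The other 5 motifs, held by 17.8%, 14.0%, 6.55%, 3.17% and 6.75% of all windows in the order above, were in neither window, which says only that these letters are not in it. For Inha the RefSeq window lies within the annotated gene, with its start site 532 bases after the GENCODE start, and it is not shown.

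Among the genes for activin-binding proteins, the follistatin transcript was by far the more abundant. Fst (ENSMUSG00000021765, chromosome 13, 114452290 to 114458951) had 637 and 726 CPM in Control 1 and Control 2, and 580 and 720 CPM in NT4 1 and NT4 2. The numbered-2 libraries were again the higher ones, and the spread was narrow, 1.14-fold in Control and 1.24-fold in NT4. Fstl3, a secreted relative of follistatin that also binds activin (ENSMUSG00000020325, chromosome 10, 79777272 to 79782630), was at 3.43, 4.16, 3.47 and 4.15 CPM in the same order of libraries, an estimated 42 to 82 read pairs. Per length, Fst was at 412 to 518 TPM and Fstl3 at 3.54 to 4.31 TPM, a ratio of 115 to 128. Fst has 6 annotated transcripts, which gene counts cannot separate, and its mean of 467 TPM becomes 381 TPM when the length of every gene is taken over all of its exons, which rescales all genes. The exons of Prss57 on the opposite strand cover 47.3% of those of Fstl3. Prss57 itself had 0 counts in each library (upper limit 0.152 to 0.242 CPM).

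**Figure D1:**
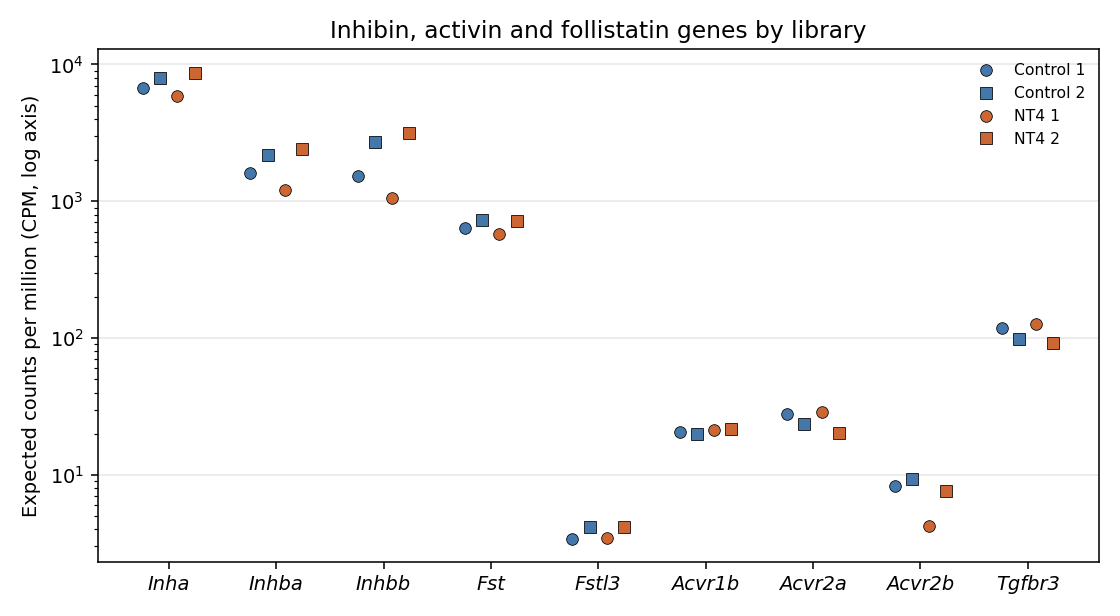
Level of each gene in each library, in CPM on a log axis. Blue marks Control and orange NT4, and circles and squares mark the libraries numbered 1 and 2. Inha, Inhba, Inhbb, Fst and Fstl3 were higher in the squares of both colours, while Tgfbr3 and Acvr2a were lower there.

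Receptor transcripts were far scarcer than those of the ligand subunits. Tgfbr3, the betaglycan gene (ENSMUSG00000029287, chromosome 5, 107106570 to 107289629), was the most abundant of the 4 receptor genes, with 119 and 98.2 CPM in Control 1 and Control 2, and 126 and 92.6 CPM in NT4 1 and NT4 2. Here the libraries numbered 1 were the higher ones. Per length it was at 29.0 to 41.6 TPM, 3.86 to 4.31 times Acvr2a and 3.09 to 4.28 times Acvr1b, and Inha was 192 to 387 times higher.

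The signalling receptors of activin were at low levels. Acvr1b, the type I receptor ALK4 (ENSMUSG00000000532, chromosome 15, 101174067 to 101213684), had 20.6 CPM in Control 1, 0.972 times that in Control 2, and 21.3 and 21.7 CPM in NT4 1 and NT4 2. It was the steadiest of the 9 genes, with 1.09-fold between its lowest and highest library, at an estimated 255 to 428 read pairs. The part of counting error in so small a range was not tested. Acvr2a, a type II receptor that activin shares with several bone morphogenetic proteins (ENSMUSG00000052155, chromosome 2, 48814109 to 48903269), was at 28.1, 23.7, 28.7 and 20.1 CPM. Both libraries numbered 1 were above both numbered 2, and 7.84% of its exon bases are shared with Orc4 on the opposite strand, which had 34.4 and 30.6 CPM in Control 1 and Control 2 and 31.7 and 31.6 CPM in NT4 1 and NT4 2. Whether reads of Orc4 were counted for Acvr2a was not tested. Acvr2b, the other type II receptor (ENSMUSG00000061393, chromosome 9, 119402118 to 119434995), was at 8.36, 9.30, 4.21 and 7.67 CPM, with NT4 1 apart from the other 3 libraries.

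The order of the 9 genes by mean level per length was Inha, Inhbb (979 TPM), Inhba (573 TPM), Fst (467 TPM), Tgfbr3 (35.6 TPM), Acvr1b (9.41 TPM), Acvr2a (8.83 TPM), Acvr2b (4.63 TPM) and Fstl3 (3.87 TPM). The ranges of Inhba and Fst overlapped, and with the lengths of all genes taken over all exons Inhba was at 756 TPM against 381 TPM for Fst. Acvr1b and Acvr2a also overlapped, with a ratio of Acvr2a to Acvr1b of 0.717 to 1.06. So did Acvr2b and Fstl3. Acvr2a was above Acvr2b in every library, by 1.88, 1.43, 3.81 and 1.46 times in Control 1, Control 2, NT4 1 and NT4 2.

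Subunit ratios were examined because they bear on which dimers can form. Inha made up 88.2% and 84.8% of subunit transcripts per length in Control 1 and Control 2, and 90.1% and 84.0% in NT4 1 and NT4 2. Inhbb made up 6.97%, 9.91%, 5.62% and 10.6%, and Inhba 4.87%, 5.29%, 4.30% and 5.38%. The alpha subunit transcript was thus in excess over both beta subunit transcripts together in every library, by 7.45, 5.58, 9.08 and 5.26 times. The ratio of Inhba to Inhbb was 0.699, 0.534, 0.766 and 0.508 in the same order of libraries. The ratio of Fst to the summed beta subunits was 0.368, 0.264, 0.468 and 0.227. Its level depends on the lengths used, here those of the longest coding transcript. With lengths over all exons the mean of Fst was 381 TPM, against 756 TPM for Inhba and 1290 TPM for Inhbb, which makes this ratio lower. All 3 ratios were lower in both libraries numbered 2 than in both libraries numbered 1.

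These ratios did not separate the groups. On the log2 scale, the ratio of Inhba to Inhbb was −0.71 ± 0.27 in Control and −0.68 ± 0.42 in NT4 (SD, n = 2), a difference of 0.03 with an exact permutation p of 1.0. The ratio of Inha to the beta subunits was 2.69 ± 0.29 in Control and 2.79 ± 0.56 in NT4 (SD, n = 2), a difference of 0.10 with an exact permutation p of 1.0. For Fst to the beta subunits the values were −1.68 ± 0.34 and −1.62 ± 0.74 (SD, n = 2), a difference of 0.06 with an exact permutation p of 1.0. Each difference was smaller than the SD within either group. The tests were two-sided and not adjusted over the 3 ratios, and with 2 libraries against 2 the smallest p they can give is 0.33.

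**Figure D2:**
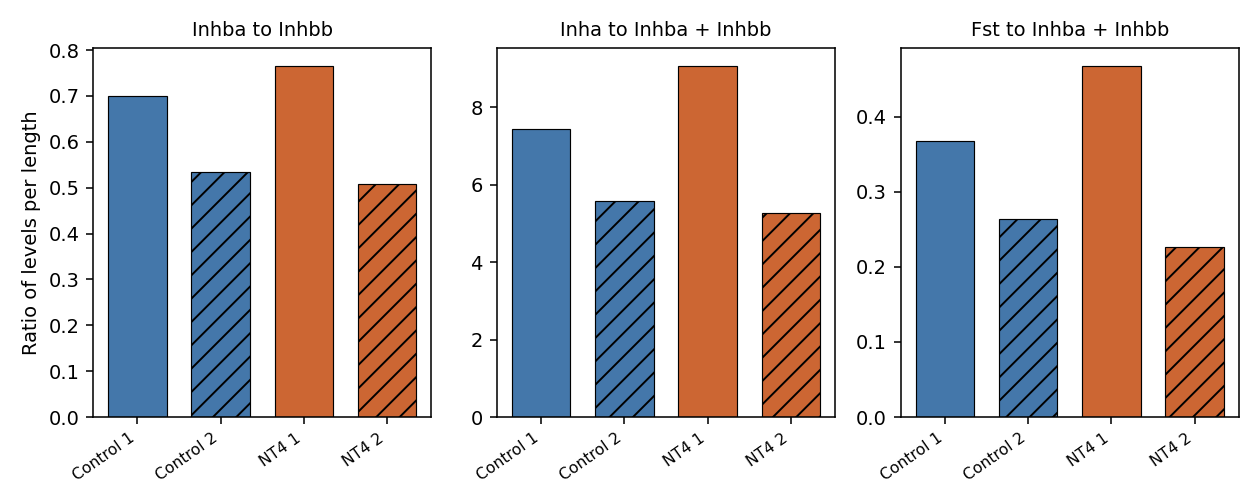
Ratios of levels per length in each library, for Inhba to Inhbb, Inha to the beta subunits and Fst to the beta subunits. Bars start at 0, blue is Control and orange NT4, and hatched bars are the libraries numbered 2, which had the lower ratio in each panel.

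NT4 was then compared with Control gene by gene, to ask whether NT-4 in the medium went with another level of these transcripts. By edgeR's quasi-likelihood test, 0 of the 9 genes passed an adjusted p of 0.05, as did 0% of the 19259 genes tested. At an unadjusted p under 0.05 there were 0 of the 9 genes and 1.99% of all genes, and the study's criterion of a fold above 2 or under 0.5 with that p was met by 0 of the 9 and 1.08% of all genes (0.478% higher and 0.602% lower in NT4). DESeq2, edgeR's exact test and limma voom also called 0 of the 9 at an adjusted p of 0.05, where DESeq2 called 65 and the exact test 59 of all genes. Of the 9 genes, 5 had a positive and 4 a negative edgeR log2 fold change, with a median of 0.0085 against 0.0045 over all genes tested.

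For the subunits the group means were nearly the same and the intervals were wide. Mean CPM of Inha and Inhbb was slightly lower in NT4, while the log2 fold change from edgeR, which rescales library totals, was slightly positive. Mean levels of Inha in CPM were 7347 ± 893 for Control and 7271 ± 2003 for NT4 (SD, n = 2), for a log2 fold change of 0.01 (SE 0.22, 95% interval −0.54 to 0.55). Those of Inhba were 1882 ± 389 and 1811 ± 848 CPM, with a log2 fold change of −0.03 (SE 0.35, −0.92 to 0.86). Those of Inhbb were 2110 ± 819 and 2105 ± 1488 CPM, with a log2 fold change of 0.02 (SE 0.55, −1.37 to 1.42). The data therefore allow anything from 0.387 to 2.67 times the Control level of Inhbb in NT4, and 0.689 to 1.47 times that of Inha. Without NT4 1 the log2 fold changes were 0.27 for Inha, 0.39 for Inhba and 0.61 for Inhbb, and without NT4 2 they were −0.33, −0.64 and −1.0.

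The remaining intervals also included 0, and those of Fst, Acvr1b and Tgfbr3 were narrower than that of Inha. Log2 fold changes were −0.05 for Fst (95% interval −0.45 to 0.36), 0.03 for Fstl3 (−0.64 to 0.70), 0.03 for Tgfbr3 (−0.43 to 0.49), −0.07 for Acvr2a (−0.61 to 0.47) and 0.11 for Acvr1b (−0.27 to 0.48). Leaving out a library turned the sign of the first 4, and Acvr1b stayed between 0.072 and 0.13. The edgeR adjusted p was 0.99994 for each of the 9 genes.

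The groups did not overlap in 2 of the 9 genes (22.2%), against 26.6% of all genes tested. Acvr1b was the higher one, with 20.3 ± 0.41 CPM for Control and 21.5 ± 0.29 for NT4 (SD, n = 2), an edgeR fold of 1.08. Acvr2b was the lower one, with 8.83 ± 0.67 CPM for Control and 5.94 ± 2.45 for NT4 (SD, n = 2). For this gene the log2 fold change was −0.54 (SE 0.33, 95% interval −1.39 to 0.30) with an unadjusted edgeR p of 0.161. The value rested on NT4 1, since it was −0.17 without NT4 1 and −1.1 without NT4 2. The latter fit has NT4 1 as its only NT4 library, so only its effect size is given here.

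**Figure D3:**
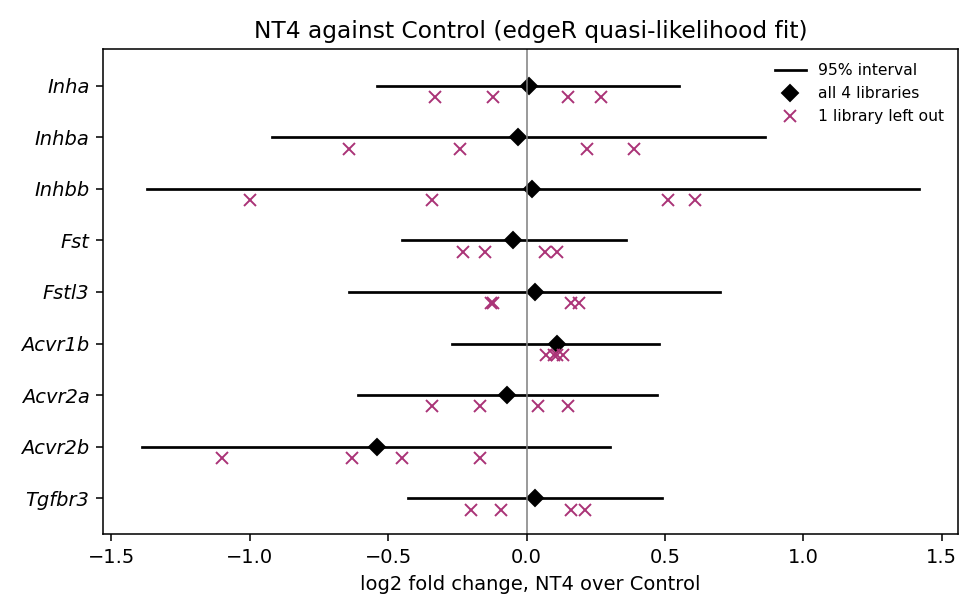
Log2 fold changes of NT4 over Control from edgeR with all 4 libraries (diamonds), their 95% intervals (lines) and the values with 1 library left out (crosses). All intervals include 0, and that of Inhbb, −1.37 to 1.42, is the widest.

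The groups overlapped in the other 7 genes, and much of the spread ran along the library numbers. In 5 of the 9 genes (Inha, Inhba, Inhbb, Fst, Fstl3) both libraries numbered 2 were above both numbered 1, against 21.8% of all genes tested. In 2 genes (Tgfbr3 and Acvr2a) they were below, 22.2% against 26.7% of all genes tested. The 5 are the subunits and antagonists, and none of the 4 receptor genes was among them. Of the 5, Fstl3 had the fewest reads, an estimated 42 to 82 read pairs per library, so counting error weighs most on it. The full order NT4 1, Control 1, Control 2, NT4 2 from low to high held for Inha, Inhba and Inhbb, and for 10.2% of 10054 genes with a mean of at least 10 CPM. The reverse order held for Tgfbr3 and Acvr2a, and for 10.7% of those genes. The labels do not say what the number stands for. The total count differed along the same line, at 49520092 and 61980073 in the libraries numbered 1 against 73743901 and 78704020 in those numbered 2, and its part in the result was not tested.

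Inhbb stood out by the size of its spread. Its highest library was 3.0 times its lowest, a ratio exceeded by 1.62% of the 10054 genes with a mean of at least 10 CPM. For Inhba the ratio was 1.99 (exceeded by 5.20%), for Inha 1.48 (18.3%), for Acvr2a 1.43, for Tgfbr3 1.36 (29.8%), for Fst 1.25 (48.0%) and for Acvr1b 1.09 (92.2%). At the lower levels of Acvr2b and Fstl3, where counting error is larger, the ratios were 2.21 and 1.21, exceeded by 8.33% and 67.8% of genes with a mean of at least 1 CPM.

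GC markers were set beside this spread. Of the 12 markers, 8 were higher in both libraries numbered 2 and 3 were lower, against 21.8% and 26.7% of all genes tested. Cyp19a1, the aromatase that makes estradiol, was at 40.3 and 65.5 CPM in Control 1 and Control 2 and at 36.8 and 85.2 CPM in NT4 1 and NT4 2. Hsd17b1, which converts estrone to estradiol, was at 555, 695, 497 and 796 CPM in this order, and the FSH receptor gene Fshr at 114, 147, 109 and 159 CPM. Amh, a hormone of small growing follicles, ran the other way at 303, 151, 393 and 89.6 CPM. The libraries with more Inha, Inhba and Inhbb were thus also those with more Cyp19a1, Hsd17b1 and Fshr and with less Amh. Kitl and Amhr2 were, like Amh, lower in both libraries numbered 2, and Esr2 was mixed. Gja1, Nr5a2 and Fam13a are among the 8 but differed little, with Gja1 at 1910, 1960, 1830 and 1950 CPM in the same order. Of the 9 theca and stroma markers 0 were higher in both libraries numbered 2 and 2 (Col1a1 and Col1a2) were lower. Of the 10 oocyte markers 0 were higher and 6 lower, and both lists are to be read against the same shares of all genes tested. The part of cell makeup in the spread of the subunit genes was not tested.

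**Figure D4:**
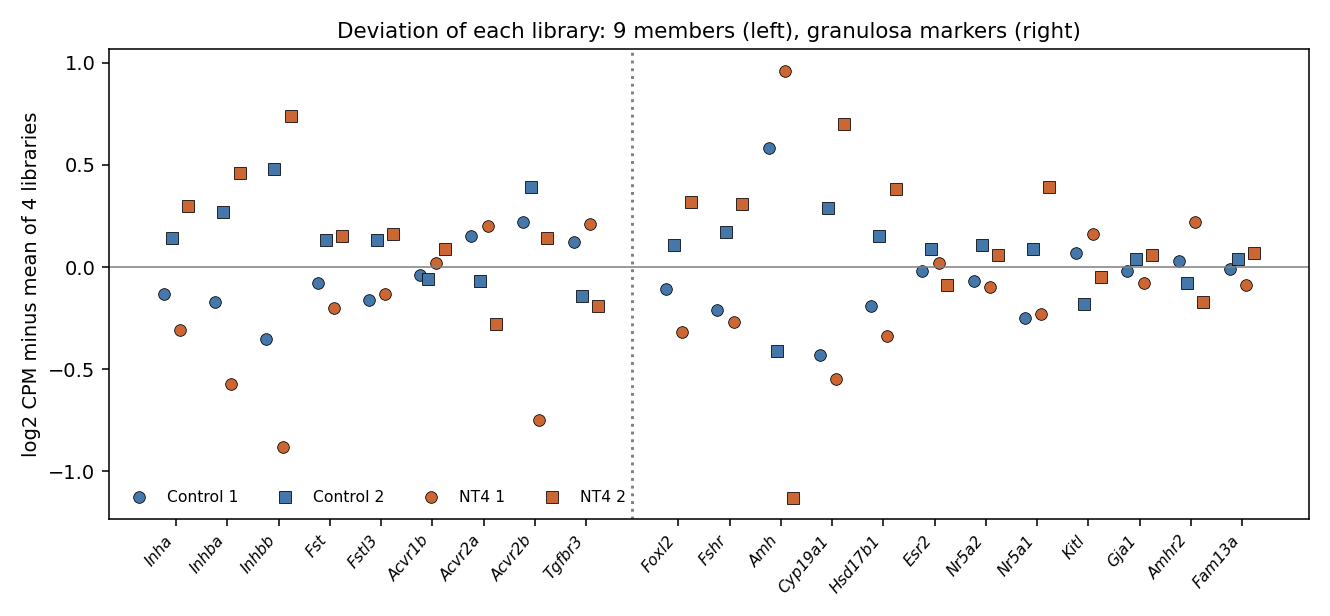
Log2 CPM (TMM-scaled, prior count 2) of each library minus the mean of the 4 libraries, for the 9 genes on the left and 12 GC markers on the right. Blue is Control, orange NT4, circles number 1 and squares number 2. Inhbb runs from −0.88 in NT4 1 to 0.74 in NT4 2, and Amh runs the opposite way.

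Genes whose levels followed a member most closely over the 4 libraries were named by the distance between mean-centred log2 CPM values, among 9548 protein-coding genes with a mean of at least 10 CPM. For Inha they were Creld2 (distance 0.0218), Gdf11 (0.0239) and Sec61g (0.0277). Gdf11 encodes another ligand of the activin receptors, and it was lowest in NT4 1 and highest in NT4 2, by 1.47-fold. For Inhba they included Sertad3 (0.0610) and Kank4 (0.0613), for Inhbb they were Samd4 (0.207), Pank2 (0.222) and Mfsd2a (0.262), and for Fst they were Vps39 (0.0144), Naa10 (0.0149) and Lasp1 (0.0182). Inhba lay at a distance of 0.501 from Inhbb, which made it rank 21 among the genes nearest to Inhbb, while Inhbb was at rank 651 from Inhba. From Inha, Inhba was at rank 2031 and Inhbb at rank 8463, while Inha was at rank 142 from Inhba and at rank 240 from Inhbb. With 4 libraries such closeness describes these samples only.

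The rest of the pathway was read from 6 lists of genes that are not among the 9, 89 genes in all. Of these, 79 were tested, 47 of them higher and 32 lower in NT4, and 0 passed an adjusted p of 0.05 or the study's criterion in edgeR's test (background 0% and 1.08%). The median log2 fold change was 0.025. Without adjustment, 2 of the 79 had a p under 0.05, where all genes gave 1.99%, and these were Creb1 and Cebpb. With 1 library left out in turn, the median of each of the 6 lists took both signs.

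Other receptors and co-receptors of the superfamily (14 genes, all tested) had 9 higher and 5 lower, with a median log2 fold change of 0.055. Per length, several were well above the activin receptors. Bmpr2, a type II receptor for bone morphogenetic proteins, averaged 142 TPM, and the type I receptors Bmpr1b, Tgfbr1 and Bmpr1a averaged 112, 69.4 and 53.9 TPM, against 9.41 TPM for Acvr1b. Their log2 fold changes were −0.14, −0.06, −0.16 and 0.02 (SE 0.13, 0.14, 0.14 and 0.13). Acvr1c, which encodes ALK7, another type I receptor for activin-like ligands, was nearly absent at 0.353 to 0.464 CPM. Both libraries numbered 2 were below both numbered 1 in 7 of the 14 and above in 0 (26.7% and 21.8% of all genes tested).

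SMADs and their regulators (18 genes, 17 tested) had 5 higher and 12 lower, with a median of −0.045. The most abundant by CPM were Ski, Tgif1, Smad4 and Ppm1a, with log2 fold changes of −0.08, −0.10, −0.06 and 0.00 (SE 0.16, 0.13, 0.11 and 0.13). Ski and Tgif1 encode repressors that act with SMADs, Smad4 the common partner of the activated SMADs and Ppm1a a SMAD phosphatase. Without NT4 1 the median was −0.17 and without NT4 2 it was 0.072. Targets named for SMAD2 and SMAD3 (16 genes, 13 tested) had 8 higher and 5 lower, with a median of 0.061, which was 0.26 without Control 1, 0.25 without NT4 2 and −0.12 without NT4 1. Their most abundant members were Ccn2 (log2 fold change 0.02), Ltbp3 (0.07), Tgif1 (−0.10) and Skil (−0.02). Skil, a SMAD corepressor, was at 118, 77.4, 155 and 35.8 CPM in Control 1, Control 2, NT4 1 and NT4 2, so its libraries lay in the opposite order to those of Inhbb.

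Other antagonists and ligands (22 genes, 17 tested) had 12 higher and 5 lower, with a median of 0.087. Among the most abundant were Grem1, which encodes an antagonist of bone morphogenetic proteins, Amh and Bmp2, with log2 fold changes of 0.09, 0.10 and −0.05 (SE 0.38, 0.69 and 0.33). Grem1 was at 264, 330, 195 and 424 CPM in Control 1, Control 2, NT4 1 and NT4 2, in the same order as the subunit genes. The remaining activin subunit genes were hardly detected, with 22 counts of Inhbc and 8 of Inhbe summed over the 4 libraries. Proprotein convertases, which cut the subunit precursors (6 genes, 5 tested), had 3 higher and 2 lower, with a median of 0.0078. Furin, Pcsk5, Pcsk6 and Pcsk7 had log2 fold changes of −0.02, 0.01, −0.27 and 0.09 (SE 0.11, 0.12, 0.46 and 0.21).

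Genes known as regulators of Inha, Inhbb or Fst transcription (17 genes, all tested) had 11 higher and 6 lower, with a median of 0.029. The most abundant were the immediate-early gene Egr1 and the GC transcription factors Nr5a2, Gata4 and Esr2, with log2 fold changes of 0.35, −0.04, 0.14 and −0.07 (SE 0.27, 0.13, 0.21 and 0.12). In 7 of the 17 both libraries numbered 2 were above both numbered 1 (21.8% of all genes tested), and in 4 they were below (26.7%). Creb1 and Cebpb were singled out after their values were seen. Creb1, which encodes the transcription factor that carries the cAMP signal of FSH, had 25.8 and 25.7 CPM in the Control libraries and 53.7 and 44.3 in those of NT4. The log2 fold change was 0.95 (SE 0.15), higher in 2 of 2 NT4 libraries, with an edgeR adjusted p of 0.817. Cebpb, which encodes an ovulation-related factor, had 54.9 and 56.1 CPM in the Control libraries and 87.2 and 80.9 in those of NT4, for a log2 fold change of 0.62 (SE 0.12) and an edgeR adjusted p of 0.99994. Theca and stroma markers were also higher in NT4, in 9 of 9 genes, of which 6 had no overlap between groups (26.6% of all genes tested) and 3 an unadjusted edgeR p under 0.05 (1.99%), and their part in these values was not tested. Neither Creb1 nor Cebpb passed the adjustment, and Inha, Inhbb and Fst overlapped between the groups.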

How the data were processed

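RNA of 4 GC libraries was analysed. Per their methods, the authors made strand-specific libraries from fragmented RNA (dUTP second strand, removed before PCR), trimmed reads with Cutadapt, mapped them with HISAT2 to the mouse genome (mm10 per the labels, Ensembl gene identifiers) and used StringTie and ballgown to estimate expression. They deposited expected counts per gene, given as whole numbers without normalization. How StringTie output became counts, and whether the counting used the strand, is not given in the sources used here. Low values pile up at multiples of 4, so 1 read pair was taken as 4 counts. The series table and the files of single libraries were identical in all 55385 genes. Replicates are separate samples by their labels, and p-values measure the spread between them.

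Symbols, coordinates and lengths came from GENCODE M21 (GRCm38), matched by identifier for 55144 genes, and promoter sequences from RefSeq (GRCm38.p6), which matched 7 of the 9 genes. Fst and Tgfbr3 had no entry. NT4 was compared with Control by edgeR 4.0.16 (R 4.3.3, quasi-likelihood test, TMM, default filter, group alone, two-sided, Benjamini-Hochberg over 19259 genes), and tested on simulated data. Intervals are 95% from the fit. Ratios were compared by exact permutation. A count of 0 allows up to 3 read pairs, for counting error only. Alternatives were DESeq2 1.42.0 size factors and Wald test, limma 3.58.1 voom, edgeR's exact test, no filter, a filter at 1 CPM in 2 libraries, counts divided by 4, a replicate block, leaving out each library and, for ratios, no length scaling and a prior count of 20. Named genes were the 9 members, the 4 most abundant genes of each pathway list with any past a threshold, the 3 genes nearest to Inha, Inhba, Inhbb and Fst, and the most abundant marker of a cell type. Some genes that this rule names are not reported here. GC markers set beside the members, and genes said to be singled out, were chosen after their values were seen. The members and lists were chosen with earlier results of these data known.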

Additional observations from a re-analysis of the deposited data

How the results depend on the processing

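None of the 9 genes passed an adjusted p of 0.05 or met the study's criterion in any alternative that used all 4 libraries. Fits that omit 1 library leave a group with 1, so for the 9 genes only their fold changes are given. Over all genes, the count at an adjusted p of 0.05 was 0 in the quasi-likelihood test, 10 with no filter, 65 by DESeq2 (Wald) and 59 by the edgeR exact test. Leaving out 1 library gave 0 to 37, with 12 when Control 1 and 37 when Control 2 was dropped. By the study's criterion 208 genes were counted, then 345 without a filter and 87 under a filter of 1 CPM (which test more and fewer genes), 119 with counts divided by 4, and 341 to 512 with a library left out. With all 4 libraries, 68 of 72 fold changes of the 9 genes kept their direction. The other 4 were Inha at −0.017 and Inhbb at −0.13, each in both limma voom and the fit with a replicate block. Over the fits that omit 1 library, fold changes were −0.33 to 0.27 for Inha, −0.64 to 0.39 for Inhba, −1.0 to 0.61 for Inhbb, −0.23 to 0.11 for Fst, −0.13 to 0.19 for Fstl3, −0.34 to 0.15 for Acvr2a and −0.20 to 0.21 for Tgfbr3, with both signs in each. Log2 ratio differences ranged from −0.27 to 0.33 for Inhba to Inhbb, −0.29 to 0.49 for Inha to the beta subunits and −0.46 to 0.59 for Fst to the beta subunits. The cause was not tested. Length scaling and the prior count kept the sign of all 3 ratio differences.

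As a check of pairing, libraries with the same number were correlated by their distance from the group mean, with Pearson 0.14 and Spearman 0.26 across the 19259 genes, which are not independent. The methods state that follicle cultures of all groups ran side by side, but neither they nor the labels tie a library number to an experiment, and 2 numbers cannot establish a pairing. With the replicate block the adjusted count was 0, 180 genes met the criterion, and Acvr2b was at −0.61. The block leaves the differences of ratios at 0.03, 0.10 and 0.065, since it averages the same 4 values. In the fits that omit 1 library, the lone one is taken to have the spread of the other group.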
